A study of Mus musculus with 8 samples.

Results

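Genes of DNA replication and S phase were followed in wound scars of mouse skin, on exon arrays. The 43 genes were listed by their function, with earlier results of these data known. All 43 had at least 1 row of their own in the deposited table, out of 20259 genes with such a row. In the high-regeneration scars 42 of the 43 had a negative difference from the low-regeneration scars, at a median of -0.29 on the log2 scale. Of these, 10 passed the test over all genes as lower (Dtl, Mcm6, Mcm7, Pola2, Pole, Pole2, Exo1, Tyms, Tk1 and Fancd2), and 0 passed as higher. The calls depended on single arrays, as did the number of calls over all genes. The median difference of the 43 was -0.17 without low 3 and low 4, the arrays with high muscle signal.

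The arrays came from scars of a mouse strain with high hair regeneration and a strain with low hair regeneration after wounding, with 4 mice and 4 arrays in each group. Each array was made from the RNA of a biopsy of the full skin, taken at an early stage of wound-induced hair neogenesis, in which follicles form anew within healing skin. The labels name neither the strains nor the sex, age or day of biopsy of the mice, and strain and regeneration level cannot be told apart. The comparison asked which transcripts differ between scars of a strain that regenerates many follicles and a strain that regenerates few.

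Replication begins where the origin recognition complex binds DNA, Cdc6 and Cdt1 load the ring-shaped Mcm helicase there, and Cdc45 and the Gins complex turn the helicase on. DNA polymerases then copy both strands behind it, held to the template by the sliding clamp Pcna, while other enzymes supply nucleotides, join the short lagging-strand fragments and rebuild chromatin. Many of these genes are switched on together at the start of S phase by E2F transcription factors. In skin the cycling cells lie mainly in the basal layer of the epidermis and in the matrix of growing hair follicles, and after wounding also in the new dermis.

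The arrays had medians between 6.09 and 6.29 (log2), and their number limits the precision. Epidermal and dermal markers were bright in both groups, with Krt5, a basal keratin, at 13.07 ± 0.08 in high and 13.02 ± 0.11 in low regeneration (SD, n = 4 each) and Col1a1, a collagen chain, at 13.28 ± 0.05 and 13.19 ± 0.10. The epidermal list had 1 of 15 measured genes called lower. Its list means were 11.07 to 11.16 on the high arrays and 11.00 to 11.17 on the low arrays. Single genes of the list moved both ways. At an unadjusted p under 0.05 by limma 4 were lower and 3 higher, such as Itga6 (-0.49, called lower) and Ivl (0.59). Skeletal muscle genes had list means of 9.64 on low 3 and 10.32 on low 4, against 6.97 to 7.15 on the high arrays and 7.04 to 7.08 on low 1 and low 2. Eif2s3y, a gene of the Y chromosome, was at 7.71 on high 4, at 7.67 on low 2 and at 7.57 on low 4, against 4.08 to 4.76 on the 5 other arrays. Xist, which is expressed from the inactive X chromosome of female cells, was at 6.11 on high 4, at 9.60 on low 2 and at 10.05 on low 4, against 12.74 to 12.93 on the 5 other arrays. Low 2 and low 4 thus carried signal of both genes, and the reason was not tested. Over all genes 500 were called lower and 376 higher in high regeneration (limma, Benjamini-Hochberg adjusted p under 0.05), which is 2.47% and 1.86% of those tested. After median centring of the arrays the split was 593 lower and 212 higher, and after cyclic loess 628 lower and 291 higher, with 7 and 8 of the replication genes lower and 0 higher.

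Of the 43 replication genes 10 were called lower, against 2.47% of all genes, and 0 were called higher, against 1.86%. An unadjusted p under 0.05 with a lower level was reached by 28 of the 43, against 10.1% of all genes. In 18 of the 43 all high arrays lay below all low arrays, which held for 7.29% of all genes. The quartiles of the 43 differences were -0.37 and -0.13, and the range ran from -0.51 in Mcm6 to 0.0043 in Ccne1. Over all genes the median difference was 0.03. Each biopsy mixes many cells, so fewer cells in S phase and less of these RNAs per cell cannot be told apart.

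**Figure D1:**
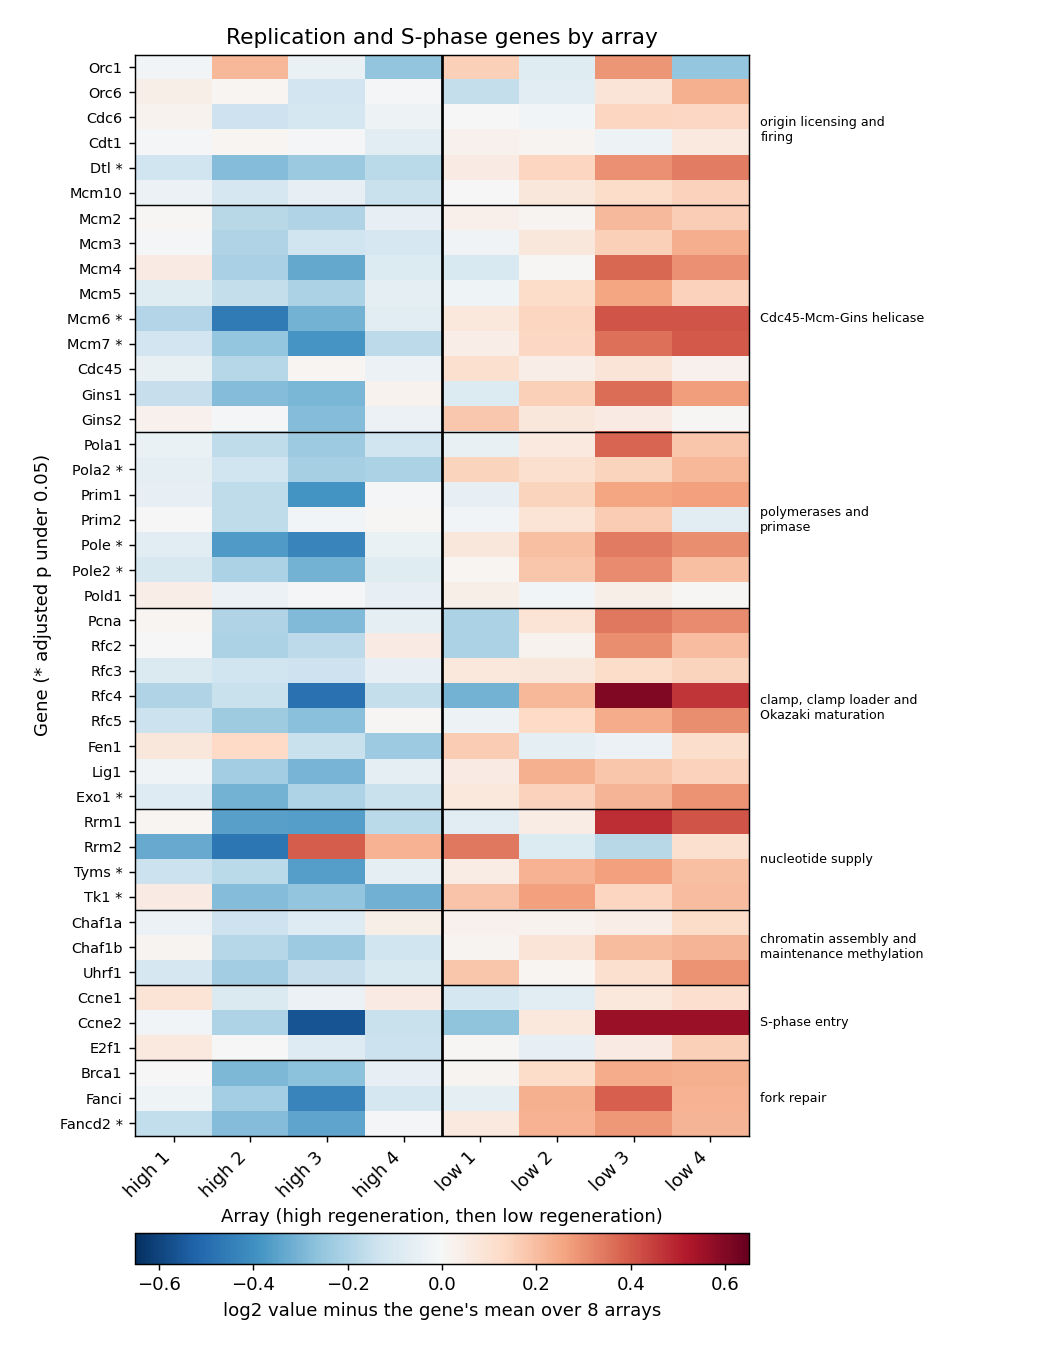
Heat map of the 43 genes (rows, by role) on the 8 arrays (columns, high regeneration on the left). Colour gives the log2 value minus the gene's own mean over the 8 arrays, and an asterisk marks an adjusted p under 0.05. Low 3 was the highest array in 19 of the genes and low 4 in 17, and high 3 was the lowest in 22.

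The arrays within a group were not alike. Averaged over the 43 genes, the log2 value was 7.53, 7.40, 7.36 and 7.50 on high arrays 1 to 4 and 7.58, 7.66, 7.79 and 7.78 on low arrays 1 to 4. The groups did not overlap in this average, and high 1 and low 1 lay next to each other at the boundary. Low 3 was the highest of the 8 arrays in 19 genes and low 4 in 17, while high 3 was the lowest in 22 and high 2 in 12. Low 1 was the lowest of the low arrays in 28 genes, and high 1 was the highest of the high arrays in 23. In the 25 genes whose groups overlapped, low 1 was not above the highest high array in 22.

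Low 3 and low 4, which led most of these genes, are also the arrays rich in muscle transcripts. Without both, 0 replication genes were called lower by limma, against 0.977% of all genes. At an unadjusted p under 0.05 by limma 13 of the 43 were lower, and 40 of 43 differences were negative. The median difference was then -0.17. All 4 high arrays lay below both low 1 and low 2 in 20 of the 43 genes, against 13.3% of all genes. The 18 genes in which all high arrays lay below all low arrays are among the 20 by construction. The 10 called genes are among these 18. In the same way the 7.29% of all genes with that order are within the 13.3%. With the mean of the muscle list as a covariate limma called 0 replication genes lower, against 1.1% of all genes. At an unadjusted p under 0.05 by limma 13 of the 43 were then lower, and their median was -0.18. The muscle mean is high on low 3 and low 4 alone, so this setting largely repeats leaving them out. In neither setting was the share of all genes at an unadjusted p under 0.05 counted.

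The origin licensing group had 1 of 6 genes called. Dtl, a substrate receptor of the ubiquitin ligase that removes Cdt1 in S phase, was at 6.89, 6.74, 6.78 and 6.84 on high arrays 1 to 4 and at 7.07, 7.16, 7.32 and 7.35 on low arrays 1 to 4. All high arrays were below all low arrays, and the gap was widest to low 3 and low 4. It fell by 0.41 ± 0.08 (SE) on the log2 scale, to 0.75 times the low-regeneration level (limma adjusted p = 0.0225). Mcm10, a factor of helicase activation, had a difference of -0.17 ± 0.06 with groups that did not overlap (6.76 to 6.87 in high and 6.91 to 7.05 in low) and did not pass (adjusted p = 0.139).

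The other members of the group did not pass either. Cdt1 was at 7.60 ± 0.03 in high and 7.63 ± 0.04 in low regeneration (SD, n = 4 each), with a difference of -0.03 and a 95% interval of -0.16 to 0.09. Orc1 and Orc6 of the origin recognition complex and the loading factor Cdc6 had differences of -0.05, -0.04 and -0.13, and each of these intervals included 0. The sign for Orc1 and Orc6 turned in some settings, among them array weights (0.02 for Orc1 and 0.0079 for Orc6), and so did that for Cdt1 without low 2, low 4 and high 4 (0.0031).

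The Mcm helicase and its partners had 2 of 9 genes called, both subunits of the Mcm ring. Mcm6 was at 8.45, 8.18, 8.34 and 8.57 on high arrays 1 to 4 and at 8.71, 8.78, 9.05 and 9.05 on low arrays 1 to 4. It fell by 0.51 ± 0.11 (SE), to 0.70 times the low-regeneration level (limma adjusted p = 0.0357). The groups did not overlap, and low 3 and low 4 stood about equally high.

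Mcm7 was at 8.56, 8.43, 8.30 and 8.51 on high arrays 1 to 4 and at 8.73, 8.82, 9.04 and 9.08 on low arrays 1 to 4. It fell by 0.47 ± 0.10 (SE), with an adjusted p of 0.0319 by limma. Its value averages 3 rows of the array, whose own differences of -0.52, -0.28 and -0.60 had the same sign. None of the rows passed over all 115830 rows of the table, where the smallest of their adjusted p-values was 0.119 and their unadjusted p-values were 0.00127, 0.0226 and 0.00454.

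The other ring subunits, Mcm2, Mcm3, Mcm4 and Mcm5, had differences of -0.21, -0.22, -0.29 and -0.25 and did not pass (adjusted p from 0.0926 to 0.214). In Mcm2 and Mcm5 all high arrays lay below all low arrays, and in Mcm3 and Mcm4 the groups overlapped. Thus all 6 ring subunits had negative differences, while their sizes ran from -0.51 to -0.21. Gins1 had a difference of -0.35, Gins2 of -0.15 and Cdc45 of -0.13, and these partners of the ring did not pass.

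The polymerase group had 3 of 7 genes called. Pola2, the accessory subunit of DNA polymerase alpha, was at 7.36, 7.28, 7.20 and 7.21 on high arrays 1 to 4 and at 7.56, 7.52, 7.56 and 7.63 on low arrays 1 to 4. The 4 low arrays were level with each other here, low 3 included. Pola2 fell by 0.30 ± 0.06 (SE), with a limma adjusted p of 0.0277.

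Pole, the catalytic subunit of the leading-strand polymerase epsilon, was at 7.35, 7.05, 6.99 and 7.38 on high arrays 1 to 4 and at 7.49, 7.62, 7.76 and 7.72 on low arrays 1 to 4. High 1 and high 4 were near low 1, and high 2 and high 3 were far below it. Pole fell by 0.45 ± 0.11 (SE), with a limma adjusted p of 0.0478.

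Pole2, the second subunit of polymerase epsilon, was at 6.74, 6.64, 6.54 and 6.77 on high arrays 1 to 4 and at 6.86, 7.02, 7.15 and 7.04 on low arrays 1 to 4. It showed the order of Pole within the high group and fell by 0.35 ± 0.08 (SE), with a limma adjusted p of 0.0479. Both epsilon genes lay just under the threshold. Pola1, the catalytic subunit of polymerase alpha, and Prim1, the small primase subunit, had differences of -0.29 and -0.31 that did not pass (adjusted p of 0.123 and 0.129). Prim2, the large primase subunit, had a difference of -0.08. Pold1, the catalytic subunit of the lagging-strand polymerase delta, was at 8.30 ± 0.04 in high and 8.33 ± 0.03 in low regeneration (SD, n = 4 each), with a 95% interval of the difference of -0.15 to 0.09.

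**Figure D2:**
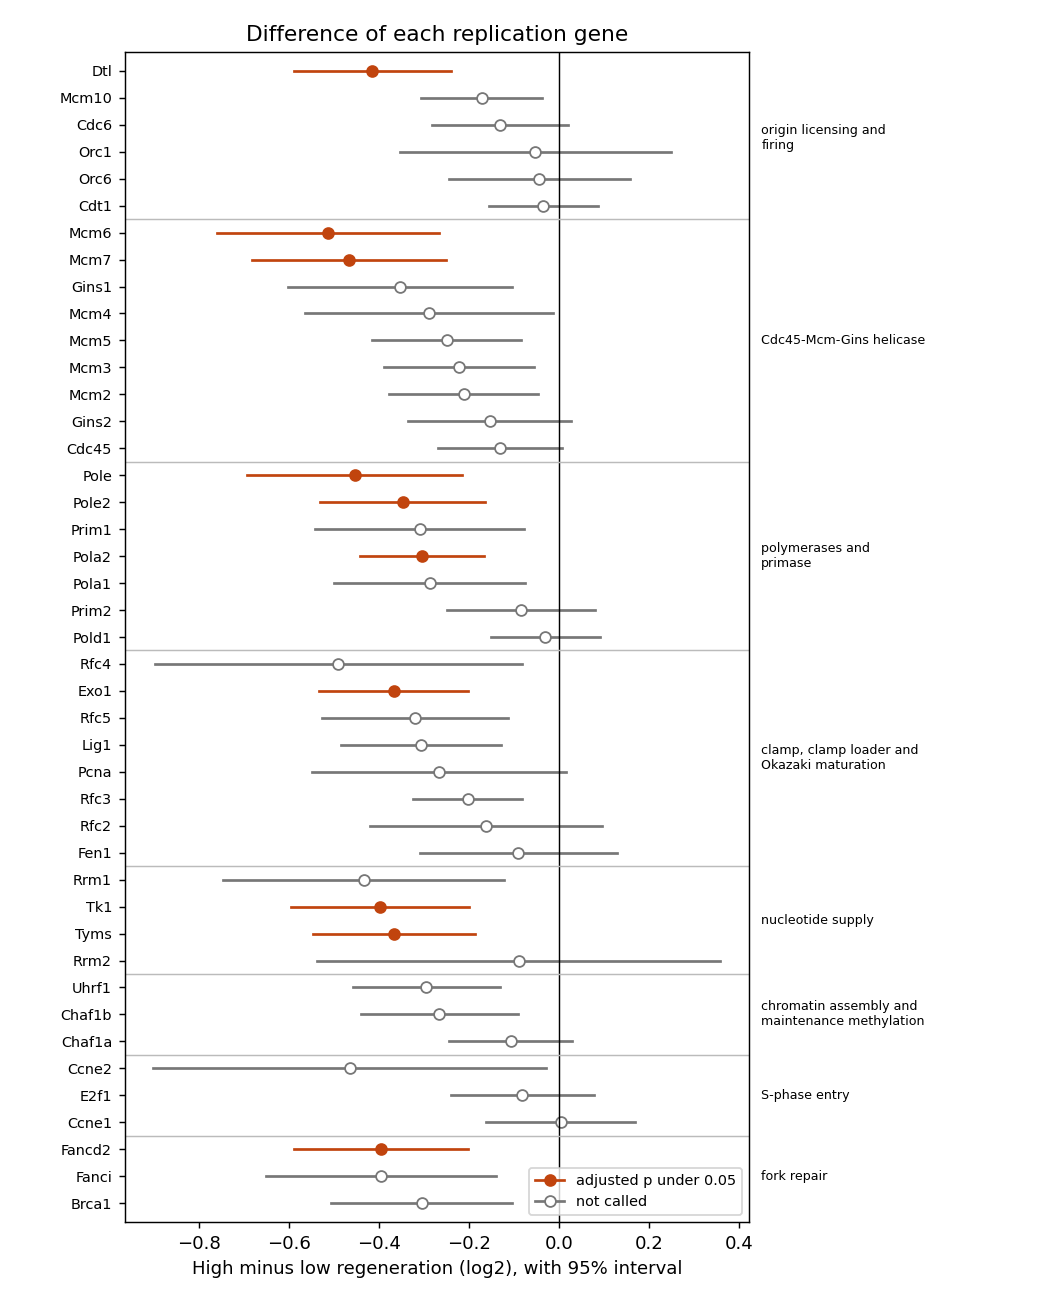
Difference of each of the 43 genes, high minus low regeneration on the log2 scale (horizontal axis), with its 95% interval from limma, by role. Filled points mark the 10 genes called lower and open points the others. The differences run from -0.51 in Mcm6 to 0.0043 in Ccne1.

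Among the clamp, its loader and the enzymes that finish Okazaki fragments 1 of 8 genes was called. Exo1, an exonuclease of mismatch repair and end resection, was at 6.45, 6.22, 6.33 and 6.38 on high arrays 1 to 4 and at 6.60, 6.68, 6.75 and 6.82 on low arrays 1 to 4. The groups did not overlap. Exo1 fell by 0.37 ± 0.07 (SE), with a limma adjusted p of 0.0287.

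Pcna was at 9.80, 9.59, 9.49 and 9.72 on high arrays 1 to 4 and at 9.58, 9.87, 10.13 and 10.09 on low arrays 1 to 4. Low 1 was level with high 2, so the groups overlapped, and the difference of -0.27 did not pass (adjusted p = 0.252). Its 2 rows had differences of -0.38 and -0.15. The clamp loader genes Rfc2, Rfc3, Rfc4 and Rfc5 had differences of -0.16, -0.20, -0.49 and -0.32.

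Rfc4 had the second largest difference of the 43 and a wide 95% interval of -0.90 to -0.08, since low 1 was at 7.39 and low 3 at 8.30. Rfc3 had a smaller difference but groups that did not overlap, at 7.02 ± 0.04 in high and 7.22 ± 0.04 in low regeneration (SD, n = 4 each), and an adjusted p of 0.0682. Lig1, the ligase that seals Okazaki fragments, had a difference of -0.31 with an adjusted p of 0.0629 and groups that did not overlap. Fen1, the flap nuclease that trims the same fragments, had a difference of -0.09 with an interval of -0.31 to 0.13.

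The genes of nucleotide supply had 2 of 4 called. Tyms, thymidylate synthase, was at 7.49, 7.46, 7.28 and 7.57 on high arrays 1 to 4 and at 7.68, 7.86, 7.90 and 7.83 on low arrays 1 to 4. It fell by 0.37 ± 0.08 (SE), with a limma adjusted p of 0.0385. A further row that the annotation assigns to Tyms together with the pseudogene Tyms-ps was left out of this average and had a difference of -0.25.

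Tk1, the thymidine kinase of S phase, was at 7.61, 7.28, 7.30 and 7.25 on high arrays 1 to 4 and at 7.75, 7.83, 7.70 and 7.76 on low arrays 1 to 4. High 1 stood above the other high arrays, and the low arrays lay close together. Tk1 fell by 0.40 ± 0.09 (SE), with a limma adjusted p of 0.0396. In Tk1 the highest array was low 2, unlike in most of the 43 genes.

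The subunits of ribonucleotide reductase, which makes deoxynucleotides, differed from each other in their pattern. Rrm1, the large subunit, had a difference of -0.43 ± 0.14 that did not pass (adjusted p = 0.115), with values of 8.71 to 9.08 on the high arrays and 8.997 to 9.55 on the low arrays. Rrm2, the small subunit, was at 6.31, 6.17, 7.03 and 6.86 on high arrays 1 to 4 and at 6.98, 6.55, 6.46 and 6.74 on low arrays 1 to 4. High 3, the lowest array in 22 of the 43 genes, was the highest array for Rrm2. Its difference of -0.09 had a 95% interval of -0.54 to 0.36, and the sign turned without high 1 (0.0059), high 2 (0.05) or low 1 (0.01).

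The group of chromatin assembly and maintenance methylation had 0 of 3 genes called by limma, while 2 had an unadjusted p under 0.05. Uhrf1, which brings the maintenance methyltransferase Dnmt1 to newly copied DNA, had a difference of -0.29 ± 0.07 with an adjusted p of 0.0552, just above the threshold. It was at 8.52 to 8.64 on the high arrays and 8.76 to 9.03 on the low arrays, and its 2 rows had differences of -0.28 and -0.31. Chaf1b and Chaf1a, subunits of the chromatin assembly factor that places histones behind the fork, had differences of -0.27 and -0.11.

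The S-phase entry genes had 0 of 3 called by limma, and 1 had an unadjusted p under 0.05. Ccne1, which encodes cyclin E1, was at 7.60 ± 0.08 in high and 7.60 ± 0.11 in low regeneration (SD, n = 4 each), and the 95% interval of the difference ran from -0.16 to 0.17. The sign of its small difference turned with the scaling, to -0.06 after median centring. E2f1, a transcription factor of this gene set, had a difference of -0.08 with an interval of -0.24 to 0.08. Ccne2, cyclin E2, was at 7.92, 7.74, 7.38 and 7.79 on high arrays 1 to 4 and at 7.68, 8.01, 8.50 and 8.50 on low arrays 1 to 4. The spread within both groups was wide, low 1 was below high 1, high 2 and high 4, and the difference of -0.46 ± 0.19 did not pass (adjusted p = 0.205).

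The fork repair genes had 1 of 3 called. Fancd2, a central protein of the Fanconi anaemia repair pathway, was at 6.53, 6.41, 6.35 and 6.68 on high arrays 1 to 4 and at 6.75, 6.92, 6.97 and 6.91 on low arrays 1 to 4. It fell by 0.40 ± 0.09 (SE), with a limma adjusted p of 0.0383. Fanci, its partner in a complex, had a difference of -0.39 with a larger spread (6.16 to 6.56 in high and 6.53 to 6.98 in low) and did not pass (adjusted p = 0.0877). Brca1, a repair protein of homologous recombination, had a difference of -0.30 with groups that did not overlap and an adjusted p of 0.0912.

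Whether a gene was detected above background on an array could not be read from the values. By mean level 42 of the 43 genes lay above the 25th percentile of all genes (6.18) and 28 above the median (7.30). Orc1, with means of 6.03 in high and 6.08 in low regeneration, was the gene below the 25th percentile. With the genes under that percentile left out, 13 of the 42 were called lower, against 4.23% of all genes kept.

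The RefSeq promoter windows of the called genes are shown because many promoters of this gene set are known for E2F sites. The windows run from 250 bases before to 50 after the annotated start (GRCm38.p6), and 34 of the 43 genes had one. The E2F-type letters searched were TTTCCCGC, TTTCGCGC, TTTGCCGC and TTTGGCGC on both strands. They are in capitals below for the 4 called genes with the smallest p among those with a window, each read 5′ to 3′ on the gene's strand, at chr1:191575495-191575794 (minus strand, Dtl), chr19:5964157-5964456 (minus strand, Pola2), chr5:138171834-138172133 (minus strand, the first of 2 windows of Mcm7) and chr1:128359656-128359955 (minus strand, Mcm6).
Dtl: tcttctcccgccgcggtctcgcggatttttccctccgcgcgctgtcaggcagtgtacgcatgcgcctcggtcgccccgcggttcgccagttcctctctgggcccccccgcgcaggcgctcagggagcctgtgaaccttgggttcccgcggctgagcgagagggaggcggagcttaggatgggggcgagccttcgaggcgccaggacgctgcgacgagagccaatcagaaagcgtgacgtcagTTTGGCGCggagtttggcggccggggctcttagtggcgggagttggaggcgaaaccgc
Pola2: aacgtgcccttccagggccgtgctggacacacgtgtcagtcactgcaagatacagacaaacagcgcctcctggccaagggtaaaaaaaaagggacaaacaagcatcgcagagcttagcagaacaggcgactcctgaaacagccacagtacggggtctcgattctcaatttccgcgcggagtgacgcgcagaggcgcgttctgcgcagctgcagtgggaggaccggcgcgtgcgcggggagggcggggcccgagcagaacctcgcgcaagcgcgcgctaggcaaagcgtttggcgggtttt
Mcm7: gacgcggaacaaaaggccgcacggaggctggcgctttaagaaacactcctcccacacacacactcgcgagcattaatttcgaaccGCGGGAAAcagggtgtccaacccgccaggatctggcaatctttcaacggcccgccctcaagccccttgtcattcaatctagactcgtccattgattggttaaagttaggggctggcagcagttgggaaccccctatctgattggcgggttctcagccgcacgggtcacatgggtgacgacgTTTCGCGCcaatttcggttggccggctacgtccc
Mcm6: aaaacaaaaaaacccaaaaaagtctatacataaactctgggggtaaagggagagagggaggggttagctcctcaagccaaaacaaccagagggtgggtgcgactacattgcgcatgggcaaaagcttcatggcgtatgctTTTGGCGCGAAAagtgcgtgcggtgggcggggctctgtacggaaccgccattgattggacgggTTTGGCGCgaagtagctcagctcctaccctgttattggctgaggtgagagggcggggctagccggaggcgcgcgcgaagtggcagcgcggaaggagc

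The Dtl window held 1 match, which began 8 bases before the start. The Mcm7 window shown held 2, and the second window of Mcm7 held 0. The Mcm6 window held 3, of which a pair overlap. The Pola2 window held 0 of these letters. Of the 34 genes with a window 14 held a match in at least 1 window (41.2%), against 702 of 26742 genes in the RefSeq table (2.63%). A match was present in 4 of the 7 called genes with a window and in 10 of the 27 others. Cdt1, Pold1, Orc1 and Cdc6, which were not called, were among those with a match. The windows of these genes had a median GC content of 58.3%, against 53.0% over all windows.

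The CCAAT box (CCAAT on either strand), bound by the factor NF-Y, was found in 19 of the 34 genes (55.9%), against 41.0% of all genes. The CHR element (TTTGAA or TTCGAA on either strand), best known from promoters of mitotic genes, was found in 5 (14.7%), against 21.5% of all genes. A match describes the letters only and is not a measured binding site.

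Replication genes outside the 43 had a smaller median difference. A wider list of 87 genes, with further origin, fork, nucleotide, E2F and repair genes that are not among the 43, had 83 measured. Of these 2 were called lower and 0 higher by limma, a share of 2.41% that is near the 2.47% over all genes. A lower level at an unadjusted p under 0.05 by limma was found in 27 of the 83, against 10.1% of all genes, and a higher one in 0. In 15 all high arrays lay below all low arrays (18.1%), against 7.29% of all genes. Of the 83 differences 69 were negative, at a median of -0.14. The list is broader than the 43, and the reason for its smaller median was not tested.

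The called genes of the wider list were Ticrr and Blm. Ticrr, which helps to fire licensed origins, was at 7.49, 7.31, 7.16 and 7.44 on high arrays 1 to 4 and at 7.63, 7.83, 7.91 and 7.92 on low arrays 1 to 4. It fell by 0.47 ± 0.09 (SE), with a limma adjusted p of 0.0295. Blm, a helicase of fork repair, was at 6.70, 6.46, 6.43 and 6.62 on high arrays 1 to 4 and at 6.80, 6.97, 7.11 and 7.04 on low arrays 1 to 4. It fell by 0.43 ± 0.09 (SE), with a limma adjusted p of 0.0337. In both genes the groups did not overlap, and low 1 was the low array nearest to the high group. Neither was called without low 3 and low 4, where 0.977% of all genes were called lower. Leaving out 1 array gave 0 to 11 (without low 1, with 3.3% of all genes called lower) called genes in the list.

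**Figure D3:**
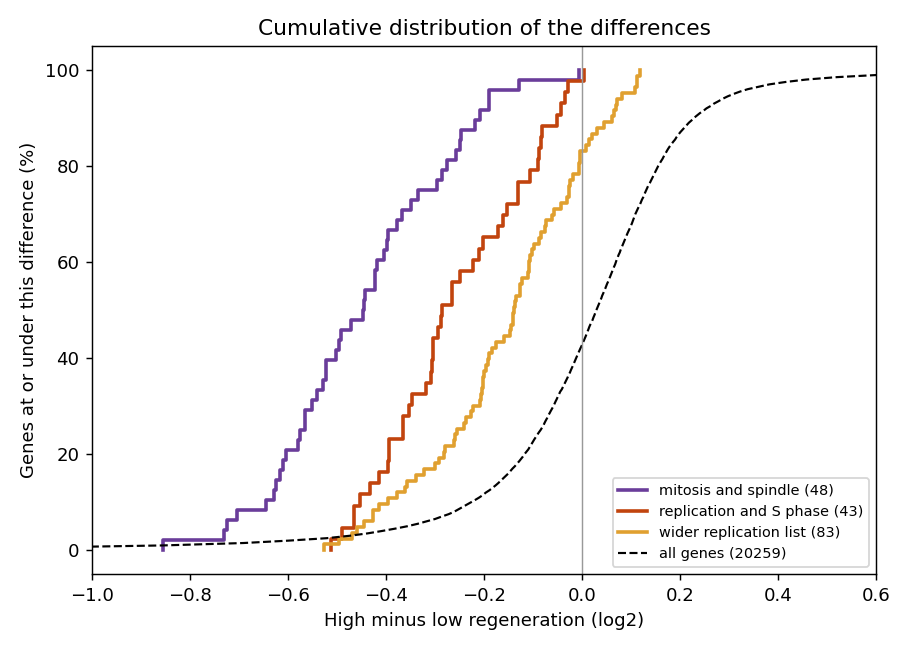
Cumulative percentage of genes (vertical axis) at or under a given difference, high minus low regeneration on the log2 scale (horizontal axis), for the 48 mitosis and spindle genes, the 43 replication genes, the 83 genes of the wider list and all 20259 genes. The medians are -0.45, -0.29, -0.14 and 0.03.

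Of 48 measured mitosis and spindle genes 23 were called lower and 0 higher by limma (47.9%), 25 did not pass, and the median difference was -0.45. Ccnb2, a mitotic cyclin, and Ccna2, a cyclin of S phase and mitosis, fell by 0.57 ± 0.08 and 0.50 ± 0.08 (SE), and Nek2, a centrosome kinase, and Cenpf, a kinetochore protein, by 0.52 ± 0.08 and 0.57 ± 0.09, with limma adjusted p-values from 0.0109 to 0.0137. Their list means were 7.63, 7.39, 7.30 and 7.61 on high arrays 1 to 4 and 7.80, 7.94, 8.01 and 7.96 on low arrays 1 to 4. High 3 was the lowest array in 37 of the 48 genes and low 3 the highest in 23, so the extremes fell on the same arrays as in the replication genes. Without low 3 and low 4 limma called 0 mitosis genes, against 0.977% of all genes called lower, at a median of -0.39. Leaving out 1 array gave 5 mitosis genes (without low 2) to 31 (without low 1). Of all genes 0.844% and 3.3% were called lower in these cases. The sizes of the lists' differences were not tested against each other.

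**Figure D4:**
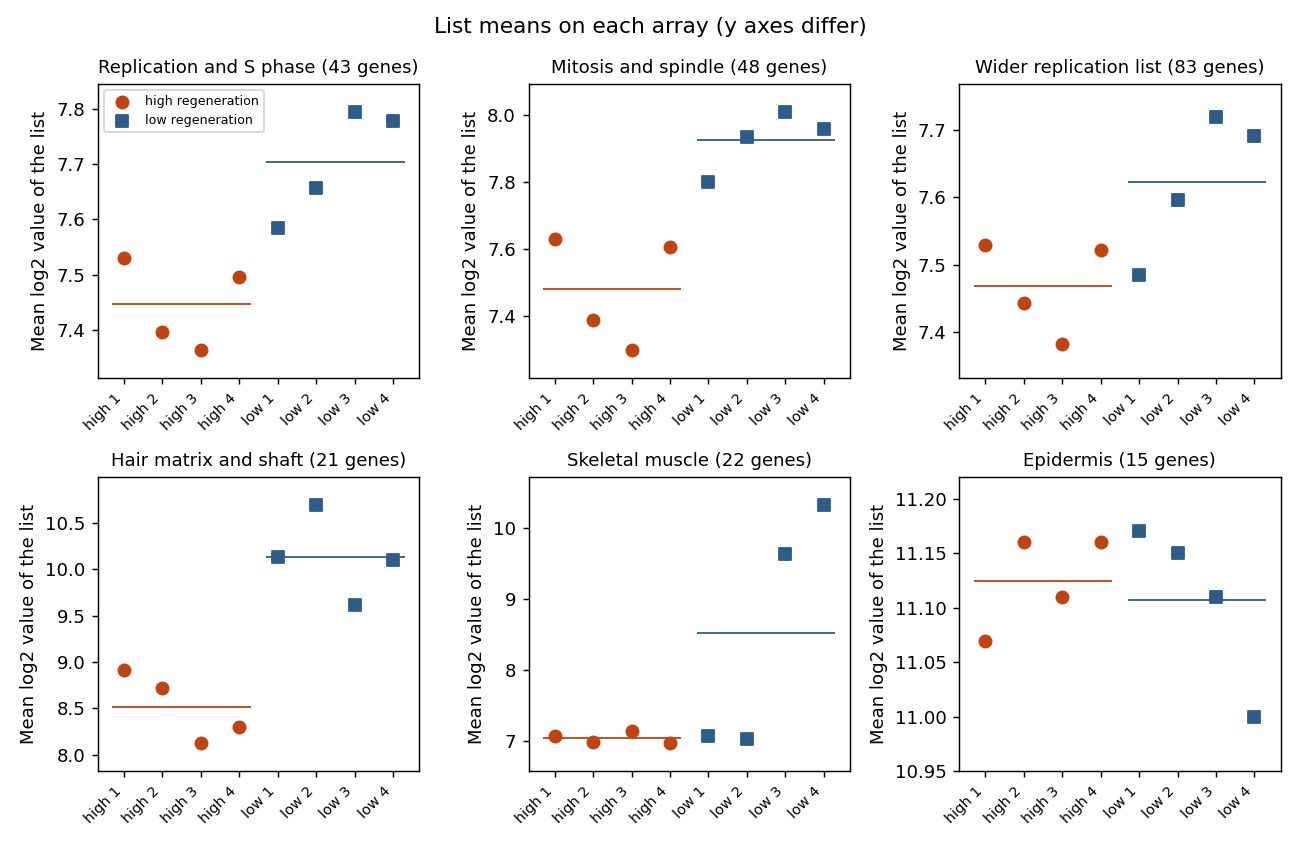
Mean log2 value of 6 gene lists (vertical axes, which differ between panels) on each array, with high regeneration on the left (circles) and low regeneration on the right (squares) and horizontal lines at the group means. The replication, mitosis, and hair matrix and shaft lists separate the groups, and the muscle list is high on low 3 and low 4 alone.

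Marker lists of other cells moved with the replication genes. The hair matrix and shaft list had 17 of 21 measured genes called lower, with list means of 8.13 to 8.91 on the high arrays and 9.62 to 10.69 on the low arrays. Its highest array was low 2 and its lowest low array was low 3, whereas the replication genes were highest on low 3. Within the high group both list means were highest on high 1 (8.91 for hair and 7.53 for replication). Both were lowest on high 3 (8.13 and 7.36). With the mean of the hair list as a covariate, a setting added after the data were seen, limma called 0 of all genes and 0 replication genes. Of the replication genes 2 were lower at an unadjusted p under 0.05 (share of all genes not counted), and the median difference was -0.30. Since the list means separate the groups, this covariate takes up much of the group difference. The fit therefore cannot tell hair content and group apart. The melanocyte list had 9 of 11 genes called lower (6.73 to 7.16 on the high arrays and 7.77 to 8.20 on the low arrays). The adipocyte list had 0 of 11 called by limma, with 10 lower at an unadjusted p under 0.05, and means of 6.83 to 6.97 on the high arrays and 7.08 to 8.23 on the low arrays, highest on low 3 and low 4. The part of the melanocyte and adipocyte lists in the result was not tested.

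Lists of macrophages and neutrophils, lymphocytes, endothelium and fibroblasts did not separate the groups in this way. Myeloid genes had list means of 8.49 to 8.69 on the high arrays and 8.36 to 8.85 on the low arrays, with 0 of 11 called by limma and 3 at an unadjusted p under 0.05. The dermal fibroblast list had 1 of 11 called lower (10.87 to 10.98 on the high arrays and 10.80 to 11.02 on the low arrays). At an unadjusted p under 0.05 by limma 1 fibroblast gene was lower and 2 were higher. Endothelial genes had 1 of 10 called lower and 1 called higher, while at an unadjusted p under 0.05 1 was lower and 6 were higher, and their part in the result was not tested. Lymphocyte genes had 2 of 11 called higher, and at an unadjusted p under 0.05 0 were lower and 2 higher.

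The number of replication genes called changed with the array left out. Leaving out 1 array left 4 lower genes without high 1, 0 without high 2, 0 without high 3 and 2 without high 4. It left 0 without low 2, 0 without low 3 and 0 without low 4, and gave 14 without low 1, 9 of them among the 10. The share of all genes called lower was 1.42%, 1.49%, 0.805% and 1.12% without high 1 to high 4. It was 3.3%, 0.844%, 1.36% and 1.06% without low 1 to low 4, against 2.47% with all arrays. Calls over all genes thus also fell, except without low 1. In the 5 cases with 0 replication genes called, limma gave 25 to 28 of them lower at an unadjusted p under 0.05. The median difference of the replication genes over the 8 cases lay between -0.32 and -0.21. With high 4, low 2 and low 4 left out, the arrays that carried Eif2s3y signal, limma called 0 replication genes lower. Of all genes 0.0494% were called lower there, so the 0 tells little about the replication genes. Of the replication genes 16 were then lower at an unadjusted p under 0.05, and the median was -0.28. With the Xist level as a covariate on all 8 arrays limma called 7 lower, all among the 10, against 1.76% of all genes. In the settings of this paragraph the share of all genes at that unadjusted p was not counted. Over the planned settings the adjusted p-values of the 10 called genes ranged from 0.0136 to 0.411.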

How the data were processed

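Total RNA of 8 scar biopsies was amplified with random primers, labelled with biotin and measured on Affymetrix exon arrays, per the protocols in the labels. The values deposited by the authors are on a log2 scale, with a row per transcript cluster, judged from their range of 2.10 to 14.92. Affymetrix Expression Console and PLIER are named in the submitters' processing notes, and their background correction and normalization are unknown here. No scaling was added, since array medians differed by 0.204, under the limit of 0.5.

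The platform annotation pairs 25539 of 115830 rows with 1 symbol and 2300 with several, which were left out. Where a gene had several rows, their log2 values were averaged (3109 of 20259 genes, 8 of the 43). No filter on low values was applied. High minus low regeneration was fitted with limma 3.58.1 in R 4.3.3 (lmFit and eBayes, two-sided), without covariates, and p-values were adjusted by Benjamini-Hochberg over all genes, with calls under 0.05. The script was tested on simulated data. There it recovered 59% of the changes of 0.5 (log2) and 97% of those of 1, with 10 false calls among 166. Alternatives changed the normalization, variance model, filter, row rule, covariates and arrays. Promoter letters were searched in RefSeq windows (GRCm38.p6).

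The members, gene lists and settings were chosen with earlier results of these data known. All 43 genes are accounted for. Called members are given on every array, and from the wider and mitosis lists the called genes with the smallest p, up to 10 and 4. The values of further members on single arrays and the marker genes named were chosen for description.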

Additional observations from a re-analysis of the deposited data

Results flagged for a closer look

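Of 86 sets of 4 arrays (the 43 genes in each group), 3 had an array far from the other arrays of its group, where chance alone gives about 1 in 20. Tk1 was at 7.61 on high 1, against 7.25 to 7.30 on the other high arrays. Rfc4 was at 7.21 on high 3, against 7.50 to 7.55 on the other high arrays. Prim2 was at 7.29 on high 2, against 7.43 to 7.46 on the other high arrays. Of these only Tk1 was called, and its distant array lies on the side of the low group. The number of such sets is not above that chance rate, and whether anything set these arrays apart was not tested.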

How the results depend on the processing

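The 4 arrays per group limit what can be called, and signal over background is not known. The replicate number as a block left 0 replication genes called, with 25 lower at an unadjusted p under 0.05 by limma (share of all genes not counted). It left 0 of the wider list, 0 of the mitosis list, and 134 lower and 105 higher genes in all, against 500 and 376. Deviations of same-numbered arrays from their group means correlated at -0.0829, 0.0246, -0.256 and -0.104. Of the 4 high arrays 0 correlated best with the low array of its own number. Other differences within a group, such as the muscle signal, enter these correlations too, so they cannot exclude a pairing. Without low 3 and low 4 the counts were 0, 0, 0, 198 and 127 in the same order, without high 4, low 2 and low 4 they were 0, 0, 0, 10 and 5, with the muscle covariate 0, 0, 1, 222 and 117, and with the hair covariate (added after the data were seen) 0 throughout. The median of the replication genes was -0.17 without low 3 and low 4 and -0.18 with the muscle covariate, which is high on those arrays alone. The hair covariate separates the groups, so its fit cannot tell hair content and group apart. Leaving out 1 array gave 0 to 14 replication genes, 0 to 11 of the wider list, 5 to 31 of the mitosis list, 163 to 669 lower and 129 to 536 higher genes. The wider list had 5 called with array weights or the 25th percentile filter, 4 with the brightest row and 1 with the Xist covariate. Median centring gave 212 higher and 593 lower genes. The cause was not tested.

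Signs turned only in genes that were not called. Leaving out 1 array, Orc1 ranged from -0.145 to 0.0342 (positive without high 4 or low 3), Orc6 from -0.102 to 0.0268 (positive without low 4), Rrm2 from -0.235 to 0.0528 (positive without high 1, high 2 or low 1) and Ccne1 from -0.033 to 0.0408 (negative without high 1, high 4, low 1 or low 2). Array weights gave 0.018 for Orc1 and 0.00786 for Orc6. Without low 3 and low 4 Orc6 was at 0.0929 and Rfc2 at 0.00847, and without high 4, low 2 and low 4 Orc6 was at 0.0107 and Cdt1 at 0.00307. The muscle covariate gave 0.0962 for Orc6, and the hair covariate gave 0.0336 for Cdt1, 0.0794 for Gins2, 0.146 for Fen1 and -0.0892 for Ccne1. Ccne1 was at -0.0105 after quantile normalization, -0.0602 after median centring and -0.0237 after cyclic loess.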
